A study of Mus musculus with 23 samples.

Results

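Chemokine receptors are the surface receptors that let a leukocyte sense and follow gradients of chemokines, and 8 of their genes were followed across populations of mouse splenic dendritic cells (DCs): Ccr1, Ccr2, Ccr6, Ccr7, Ccr9, Cxcr3, Cxcr4 and Cx3cr1. They were found by symbol among the 47729 genes of the count table, and all 8 were among the 19597 genes that passed edgeR's filter on low expression. The cells came from spleens of wild type BALB/c mice, pooled before sorting, and each of the 23 RNA libraries is 1 population of 1 pool. Per the study's methods a small, fixed number of cells was sorted for each library from lineage-negative cells positive for CD11c and MHC class II, and RNA was copied with an ultra-low input kit. The 4 gates rest on CD8 and CD172 (the protein of Sirpa): DC1a is CD8hi and CD172-, DC1b is CD8Int and CD172+, DC2 is CD8lo and CD172hi, and DC3 is CD8- and CD172lo. Untreated mice gave pools 1 and 2 of every population. Mice labelled TLI, a term that the labels do not spell out and that commonly stands for total lymphoid irradiation, gave pools 1 to 4 of DC1a, DC1b and DC3 and pools 1, 3 and 4 of DC2. The untreated pools and TLI pools 1 and 2 were processed as batch 1, and TLI pools 3 and 4 as batch 2. Ages of the mice and the radiation dose are not in the labels used here.

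Chemokine receptors are seven-pass membrane proteins that signal mainly through inhibitory G proteins, and the pattern of receptors that a DC carries sets which tissues it can enter and leave. Ccr7 guides mature DCs towards the T cell zone of lymphoid organs along Ccl19 and Ccl21. Ccr1, Ccr2 and Ccr6 answer to chemokines of inflamed tissue and epithelium, Ccr9 to the gut and thymus chemokine Ccl25, Cxcr3 to the interferon-induced chemokines Cxcl9 and Cxcl10, Cxcr4 to the retention factor Cxcl12, and Cx3cr1 to the membrane-bound chemokine Cx3cl1. Which of these the sorted populations transcribe bears on where each can travel, a question the study leaves to further work.

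Library totals ranged from 19256447 to 36997890 estimated counts, and levels are given as CPM, a gene's count scaled to a common library total. A gene with 3 counts or fewer was treated as at the floor, which is 0.0811 to 0.156 CPM depending on the library. These floors cover counting error only, since amplified reads without molecular identifiers are not independent molecules. The genes of the gating markers followed the labels in DC1a and for Cd8a in DC2: Cd8a lay at 315 to 850 CPM in DC1a and at most at 1.06 CPM in DC2, and Sirpa stayed at or below 0.676 CPM in DC1a. The DC1b library of TLI pool 4 went against its gate, with Cd8a at 0.327 CPM and Sirpa at 6.55 CPM. Sirpa was also low in TLI DC1b pool 3 (5.10 CPM), against 146 and 141 CPM in pools 1 and 2. In DC2, gated as CD172hi, Sirpa stood at 252 and 196 CPM in untreated pools. It stood at 36.7, 9.22 and 309 CPM in TLI DC2 pools 1, 3 and 4. DC3 held the cDC1 genes Xcr1 (145 to 453 CPM) and Clec9a (213 to 366 CPM) with little Cd8a (0.228 to 41.6 CPM). Several libraries held marker genes of other cell types. Whether these came from other cells or from the gated cells themselves was not tested. The 10 plasmacytoid DC markers summed to 7624 and 10928 CPM in untreated DC1b and to at most 930 CPM in any other library. The 12 neutrophil markers summed to 1469 to 21072 CPM in TLI DC1b and to at most 30.7 CPM in untreated libraries. The NK cell gene Ncr1 stood at 1112 and 340 CPM in DC3 of TLI pools 1 and 2. Erythroid genes took 4.82% to 13.4% of the counts in TLI pool 1, 1.96% to 2.42% in TLI pool 2 and at most 0.717% elsewhere. In sorted bulk samples such as these, fewer cells of a type and less RNA per cell cannot be told apart.

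On assembly GRCm38 the genes sit on 5 chromosomes, and 4 of the 8 lie on chromosome 9. Cx3cr1 (ENSMUSG00000052336) is at chr9:119901616-120069879 on the minus strand. Ccr9 (ENSMUSG00000029530, chr9:123678439-123784330, plus strand), Ccr1 (ENSMUSG00000025804, chr9:123962124-123968692, minus strand) and Ccr2 (ENSMUSG00000049103, chr9:124101950-124113557, plus strand) lie within 435 kb of each other. Ccr7 (ENSMUSG00000037944) is at chr11:99144196-99155077 on the minus strand, and Ccr6 (ENSMUSG00000040899) at chr17:8236043-8257141 on the plus strand. Cxcr4 (ENSMUSG00000045382) is at chr1:128588199-128592293 on the minus strand, and Cxcr3 (ENSMUSG00000050232) at chrX:101731535-101734269 on the minus strand. Ccr9 shares 2201 exon bases with the annotated genes Slc6a20a, Gm17200 and AC165425.1, and Cx3cr1 shares 78 with Gm33858. Whether the counting used the strand is not stated, so the level of Ccr9 carries that uncertainty.

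The 250 bases upstream of the RefSeq start (GRCm38.p6) are shown for Ccr2, Ccr9 and Cxcr4, the receptors on which the differences between populations below turn and for which the promoter table has an entry. Ccr7 has none. Capitals mark E-boxes (CANNTG, the same on both strands), the letters bound by E proteins such as Tcf4, which directs plasmacytoid DC development.
Ccr2, chr9:124101933-124102182, plus strand: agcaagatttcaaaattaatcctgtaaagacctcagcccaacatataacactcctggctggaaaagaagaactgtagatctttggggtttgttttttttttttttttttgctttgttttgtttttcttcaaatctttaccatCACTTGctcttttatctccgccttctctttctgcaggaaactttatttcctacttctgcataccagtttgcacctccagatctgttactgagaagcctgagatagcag
Ccr9, chr9:123766961-123767210, plus strand: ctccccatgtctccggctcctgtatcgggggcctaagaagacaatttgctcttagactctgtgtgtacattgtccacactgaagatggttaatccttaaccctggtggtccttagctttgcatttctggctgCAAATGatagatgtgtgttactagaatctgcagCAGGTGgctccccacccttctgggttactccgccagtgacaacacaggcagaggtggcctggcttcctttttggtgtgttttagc
Cxcr4, chr1:128592300-128592549, minus strand: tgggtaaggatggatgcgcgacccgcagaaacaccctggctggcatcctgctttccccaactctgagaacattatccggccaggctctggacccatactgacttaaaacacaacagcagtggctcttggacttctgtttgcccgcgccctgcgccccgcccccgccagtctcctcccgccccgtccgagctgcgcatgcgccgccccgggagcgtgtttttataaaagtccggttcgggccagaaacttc
The Ccr9 window holds 2 E-boxes (CAAATG and CAGGTG), the Ccr2 window holds 1 (CACTTG), and the Cxcr4 window holds 0. An E-box stands in 66.2% of all 32851 RefSeq promoter windows of this length. The PU.1-type ETS letters GAGGAA (in 23.3% of windows) searched on either strand, were in 0 of these 3 windows. A match is a description of the letters and not of a bound site.

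Receptor genes passed the test between populations under both treatments. No receptor passed it between TLI and untreated mice in the same fit, where 0.128% of pairs over all genes did. With so few calls for any gene, 0 calls among 32 receptor pairs says little about the receptors. All comparisons came from a single edgeR fit of the 23 libraries with a term for batch, and a gene was called at a Benjamini-Hochberg adjusted p under 0.05 over the 19597 genes. Between untreated populations 4 of 48 pairs of receptor and comparison (8.33%) were called, against 0.760% of such pairs over all genes. Between TLI populations 9 of 48 (18.8%) were called, against 1.38%. By comparison, the share of all genes called was 0.837% for untreated DC1b against DC1a, 1.91% for DC2 against DC1a, 0.184% for DC3 against DC1a, 0.398% for DC2 against DC1b, 0.393% for DC3 against DC1b and 0.837% for DC3 against DC2, and 1 receptor was called in each of these except the comparisons of DC2 with DC1a and DC1b (0 each). In the same order after TLI it was 1.42%, 3.40%, 0.750%, 0.214%, 1.11% and 1.37%, with 1, 3, 2, 1, 1 and 1 receptors called. The calls fell on Ccr2, Ccr7, Ccr9 and Cxcr4. CPM of the groups did not overlap in 40 of 48 untreated pairs (83.3%, against 43.8% of all pairs) and in 14 of 48 TLI pairs (29.2%, against 7.54%). The median log2 fold change was 0.16 over the untreated receptor pairs and 0.52 over the TLI pairs, against 0.01 and -0.02 over all genes. Its sign rests on which population of a pair is named first, so these medians have no direction of their own. Libraries of the same pool number may come from the same mice, and the untreated groups hold 2 pools each. The fit shares 1 estimate of a gene's spread over all 23 libraries. The p-values of untreated comparisons thus also carry the spread of the TLI pools, and all p-values rest on few pools.

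**Figure D1:**
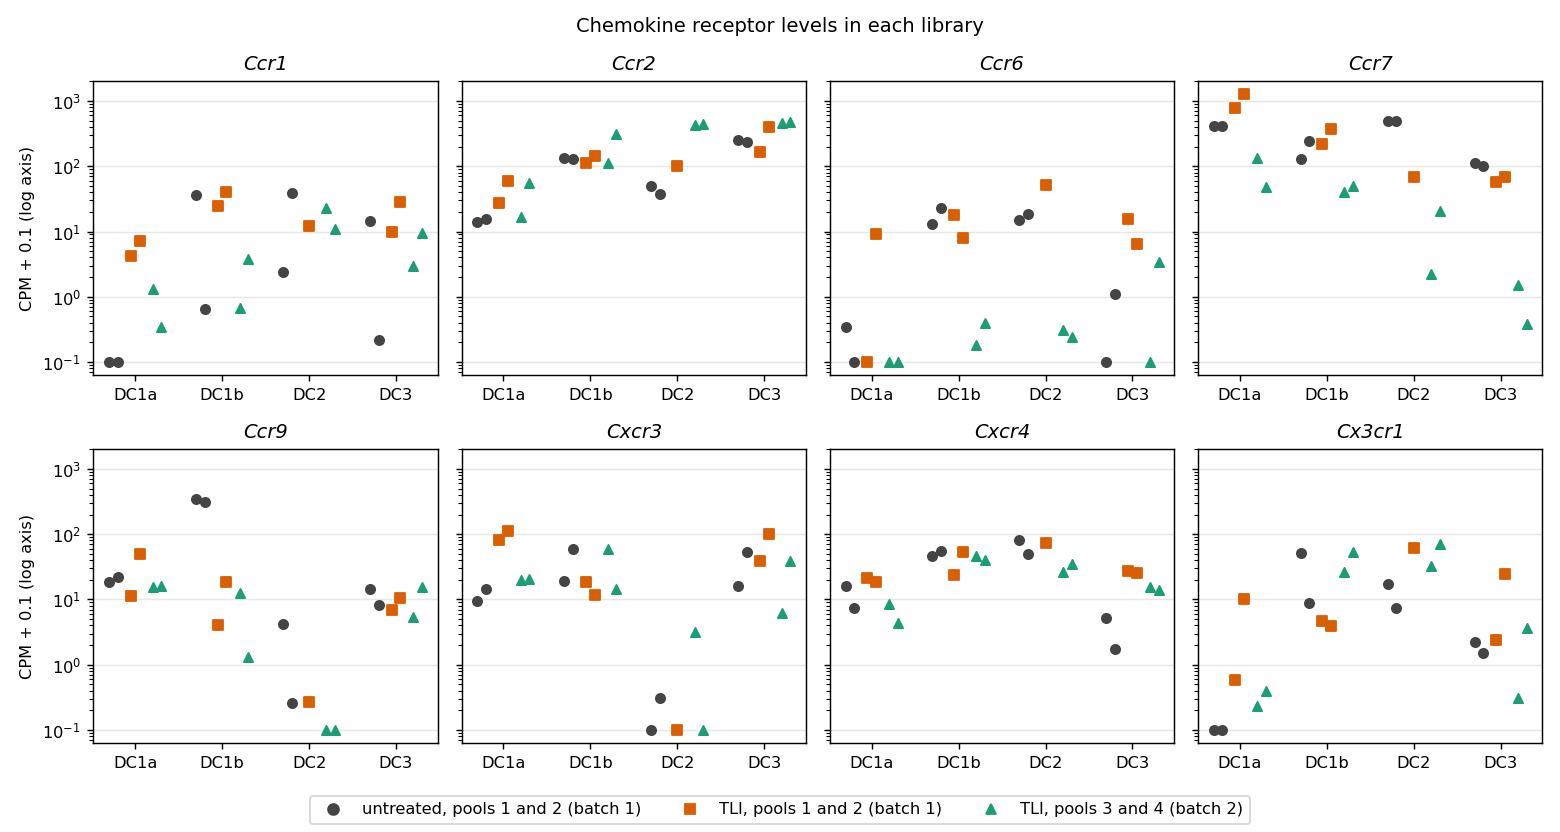
Level of each chemokine receptor gene in each library, as CPM plus 0.1 on a log axis, by population and treatment; each point is 1 library, circles are untreated pools, squares TLI pools 1 and 2, triangles TLI pools 3 and 4. Within each treatment Ccr2 is lowest in DC1a. Ccr9 reaches 312 and 349 CPM in untreated DC1b alone, and among untreated libraries Cxcr4 is lowest in DC3.

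**Figure D2:**
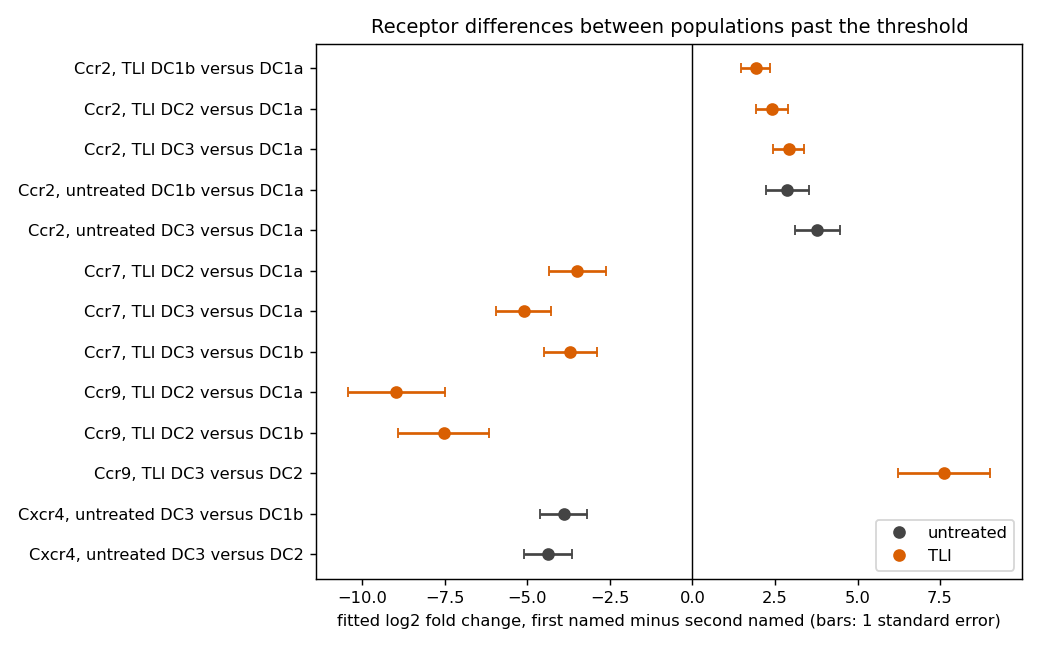
The 13 differences between populations that passed the threshold, as fitted log2 fold changes (horizontal axis, the first-named population over the second) with 1 standard error, gray for untreated and orange for TLI. Ccr2 lies to the right of 0 against DC1a, from 1.91 to 3.78, and Ccr7 and Cxcr4 lie to the left.

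Ccr7, the lymphoid homing receptor of mature DCs, had the highest level per kilobase of the receptors in untreated DC1a and DC2. It stood at 417 and 416 CPM in untreated DC1a and at 490 and 501 CPM in untreated DC2. It stood at 127 and 241 CPM in untreated DC1b and at 113 and 101 CPM in untreated DC3. DC1b and DC3 lay next to each other in this order and differed by less than a called amount, as did DC1a and DC2, and 0 of the 6 untreated comparisons of Ccr7 were called. After TLI the order was DC1a and then DC1b, followed by DC2 and DC3 at near-equal means (30.7 and 31.7 CPM). DC2 and DC3 mix the batches in unlike shares, and their batch 2 means were 11.4 and 0.863 CPM. With batch in the fit, DC3 against DC2 was -1.61 ± 0.83 on the log2 scale, which was not called (edgeR adjusted p = 0.423). TLI DC1a pools 1 to 4 held 794, 1261, 132 and 48.3 CPM and TLI DC1b pools 216, 373, 40.0 and 49.3 CPM. TLI DC2 pools 1, 3 and 4 held 69.4, 2.14 and 20.7 CPM, and TLI DC3 pools 56.7, 68.4, 1.44 and 0.285 CPM. The ranges overlapped across batches, but within each batch DC1a lay above DC3 in every library. Ccr7 was lower in TLI DC3 than in TLI DC1a by a log2 fold change of -5.11 ± 0.84 (SE; edgeR quasi-likelihood test, adjusted p = 0.00395), a call kept in 30 of 30 alternative analyses. It was also lower in TLI DC2 than in TLI DC1a (-3.50 ± 0.86, edgeR adjusted p = 0.0326) and in TLI DC3 than in TLI DC1b (-3.70 ± 0.80, edgeR adjusted p = 0.0305). These last calls were lost with the pool as a block (edgeR adjusted p = 0.0822 and 0.0767) and in a fit of the TLI libraries alone (0.0826 and 0.0928), and over the 30 alternatives their adjusted p ran from 0.000395 to 0.188 and from 4.68e-05 to 0.147. Without the libraries of TLI pool 1, which hold the most erythroid RNA, the DC2 against DC1a difference was -2.99 with an adjusted p of 0.188 by edgeR. Leaving out a single library ended that call for TLI DC2 pools 1 and 3 and TLI DC1a pools 2 and 3 (edgeR adjusted p 0.151, 0.102, 0.0547 and 0.117). The DC3 against DC1b call ended without TLI DC1b pools 2, 3 or 4 or TLI DC3 pools 3 or 4 (edgeR adjusted p 0.0503, 0.0564, 0.0576, 0.147 and 0.0615).

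Ccr7 also separated the TLI batches. Ccr6, the receptor for the epithelial chemokine Ccl20, was called between them as well but did not separate them in DC1a. Ccr7 fell by 3.73 ± 0.59 on the log2 scale in batch 2 against batch 1 of the TLI pools (edgeR adjusted p = 0.000339) and Ccr6 fell by 6.36 ± 1.63 (edgeR adjusted p = 0.0123). Thus 2 of 8 receptors were called, against 17.4% of all genes. In every TLI population the batch 1 libraries of Ccr7 lay above the batch 2 libraries, with means of 1028 and 90.2 CPM in DC1a, 295 and 44.6 CPM in DC1b, and 62.5 and 0.863 CPM in DC3. Ccr6 stood at 18.0 and 7.74 CPM in batch 1 DC1b, at 51.2 CPM in DC2 pool 1 and at 15.4 and 6.39 CPM in batch 1 DC3. In batch 2 its values were 0.0831 and 0.298 CPM in DC1b, 0.211 and 0.138 CPM in DC2, and 0 and 3.30 CPM in DC3. In TLI DC1a Ccr6 stood at 0 and 9.19 CPM in batch 1 and at 0 CPM in both batch 2 libraries. With batch went markers of DCs and of other cell types. Called lower in batch 2 were 8 of 8 erythroid, 8 of 10 T cell and 7 of 9 NK cell markers. So were 6 of 14 monocyte and macrophage markers, but only 1 of 12 neutrophil and 0 of 8 B cell markers. Among DC genes 6 of 8 pan-DC markers were called lower (with 1 called higher), as were 4 of 13 mature DC markers (with 2 called higher). The part of all these markers in the batch difference of Ccr7 and Ccr6 was not tested. The test of the batch term was added after the data were seen.

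**Figure D3:**
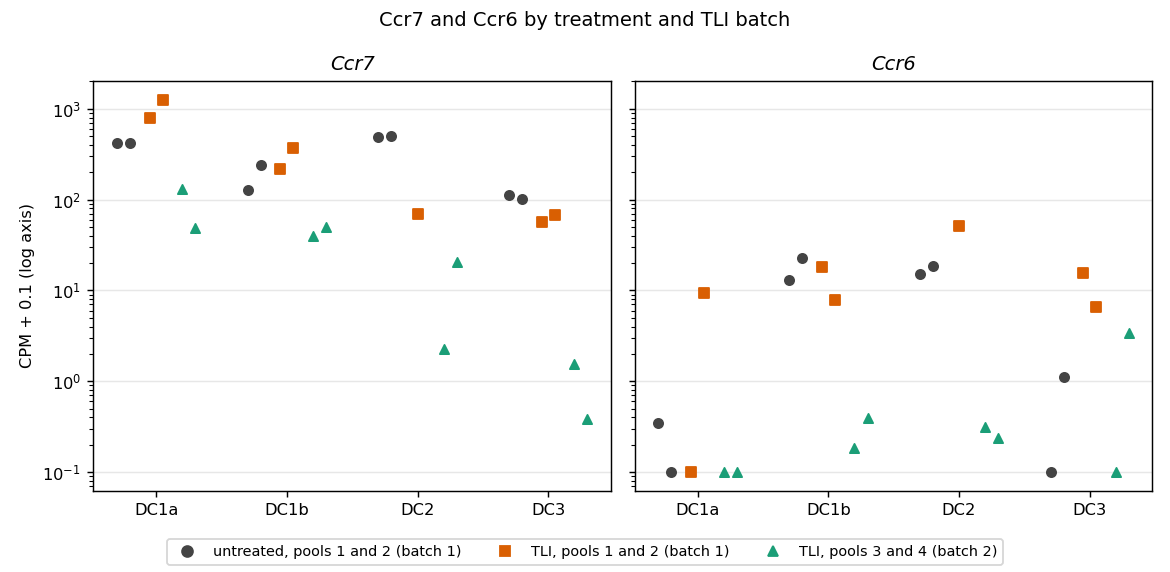
Ccr7 and Ccr6 in each library, as CPM plus 0.1 on a log axis, by population, with untreated pools as circles, TLI batch 1 as squares and TLI batch 2 as triangles. The triangles lie below the squares for Ccr7 in all 4 populations, and for Ccr6 in DC1b, DC2 and DC3.

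Ccr2, the receptor for Ccl2 that brings monocytes out of bone marrow, was lowest in DC1a under both treatments. Untreated DC1a held 13.9 and 15.3 CPM, DC2 49.7 and 37.2 CPM, DC1b 135 and 128 CPM and DC3 251 and 231 CPM. All 4 untreated populations were thus apart from each other in range. Against untreated DC1a the difference was 2.87 ± 0.65 on the log2 scale for DC1b (8.97-fold in mean CPM, edgeR adjusted p = 0.0482) and 3.78 ± 0.68 for DC3 (16.5-fold, edgeR adjusted p = 0.0262). The DC2 differences were not called (edgeR adjusted p = 0.3601 against DC1a and 0.0977 for DC3 against DC2). TLI DC1a pools held 27.2, 58.5, 16.8 and 56.2 CPM. TLI DC1b pools held 112, 144, 110 and 307 CPM, TLI DC2 pools 101, 428 and 437 CPM, and TLI DC3 pools 163, 400.4, 462 and 477 CPM. No TLI DC1a library reached the lowest value of the other TLI populations, whose own ranges overlapped. Against TLI DC1a Ccr2 was higher by 1.91 ± 0.45 on the log2 scale in DC1b (4.24-fold, edgeR adjusted p = 0.0404), by 2.41 ± 0.50 in DC2 (8.12-fold, edgeR adjusted p = 0.0102) and by 2.91 ± 0.46 in DC3 (9.47-fold, edgeR adjusted p = 0.00332). The TLI calls for DC2 and DC3 were kept in 30 of 30 alternatives.

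The other Ccr2 calls were near the threshold. The untreated DC1b call was kept in 14 of 30 alternatives, with adjusted p from 0.000725 to 0.489, and among the fits without 1 library it held only without TLI DC1a pools 2 or 3, TLI DC1b pools 3 or 4, TLI DC2 pool 1 or TLI DC3 pools 1 or 2. The TLI DC1b call was likewise kept in 14 of 30 (adjusted p 0.00221 to 0.129) and held without TLI DC1a pool 2, TLI DC1b pools 2 or 3, any TLI DC2 library or TLI DC3 pools 1 or 2. Without the DC1b library of TLI pool 4, which held little Cd8a, it was 1.61 with an edgeR adjusted p of 0.127, and in a fit of the TLI libraries alone its edgeR adjusted p was 0.0984. The untreated DC3 call was lost without DC1a pools 1 or 2 (edgeR adjusted p 0.454 and 0.352) or DC3 pools 1 or 2 (0.101 and 0.132), which leaves a single library on 1 side. The 14 monocyte and macrophage markers summed to 1042 and 1111 CPM in untreated DC1a, 4186 and 7160 CPM in untreated DC1b, and 552 to 2274 CPM in DC1a of both treatments together. They summed to 7944 to 27168 CPM in TLI DC1b, to 6013 to 15206 CPM in DC2 of both treatments and to 1197 to 4241 CPM in DC3 of both treatments. Their part in the level of Ccr2 was not tested.

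Ccr9, the receptor for Ccl25 that plasmacytoid DCs are known to carry, was most abundant in untreated DC1b. It stood there at 349 and 312 CPM, and at 18.3 and 22 CPM in untreated DC1a. It stood at 14.3 and 8.07 CPM in untreated DC3 and at 4.15 and 0.156 CPM in untreated DC2. The mean in untreated DC1b was 16.4-fold that of DC1a, 29.6-fold that of DC3 and 153-fold that of DC2, with no overlap, but 0 of these 3 differences were called (edgeR adjusted p = 0.301, 0.254 and 0.0617). In TLI DC1b pools 1 to 4 Ccr9 lay at 3.99, 18.1, 12.4 and 1.19 CPM. Every TLI DC1b library was below both untreated ones, and the means, 8.91 ± 7.74 (SD, n = 4) and 330.4 ± 25.7 CPM (SD, n = 2), were 37.1-fold apart. The fitted difference of -4.59 ± 1.13 on the log2 scale missed the threshold (edgeR adjusted p = 0.0917). Over its alternatives the adjusted p ran from 0.0024 to 0.374, past the threshold with DESeq2 and without the filter on low expression, and within batch 1 the difference was -4.63 (edgeR adjusted p = 0.232). Between untreated and TLI DC1b the plasmacytoid DC markers moved with Ccr9. Their sum was 7624 and 10928 CPM in untreated DC1b and 316 to 930 CPM in TLI DC1b. Across the other untreated populations the sum did not follow Ccr9, at 73.1 and 157 CPM in DC1a and 559 and 319 CPM in DC3. Siglech stood at 1160 and 1858 CPM in untreated DC1b and at 30.0, 31.2, 9.50 and 0.268 CPM in TLI DC1b. Tcf4 stood at 1026 and 523 CPM and then at 64.4, 46.3, 31.1 and 23.4 CPM. Their part in the level of Ccr9 was not tested.

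After TLI, Ccr9 was at or near 0 in DC2 and present elsewhere. TLI DC2 pools held 0.17, 0 and 0 CPM, TLI DC1a pools 11.4, 49.7, 15.4 and 15.9 CPM, and TLI DC3 pools 6.82, 10.5, 5.20 and 15.1 CPM. TLI DC2 lay below every library of the other TLI populations, whose ranges overlapped each other. Ccr9 was lower in TLI DC2 than in TLI DC1a (log2 fold change -8.97 ± 1.46, edgeR adjusted p = 0.00161) and higher in TLI DC3 than in TLI DC2 (7.63 ± 1.40, edgeR adjusted p = 0.00726), and both calls were kept in 30 of 30 alternatives. It was lower in TLI DC2 than in TLI DC1b by -7.54 ± 1.39 (edgeR adjusted p = 0.0300). That call was kept in 21 of 30 alternatives (adjusted p 5.03e-08 to 0.159) and lost with the pool as a block (0.109), in a fit of the TLI libraries alone (0.0694) and without TLI pool 1 (0.0554). It was also lost without TLI DC2 pools 3 or 4 (0.159 and 0.148), TLI DC1b pools 2 or 3 (0.0584 and 0.0572) or untreated DC1a pools 1 or 2 (0.0535 and 0.0537). Sizes against so few counts depend on how the fit treats 0 and are not measures of fold. In the TLI libraries the plasmacytoid markers summed to 39.6 to 87.7 CPM in DC1a, 316 to 930 CPM in DC1b, 232 to 285 CPM in DC2 and 205 to 341 CPM in DC3, and their part in these differences of Ccr9 was not tested.

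**Figure D4:**
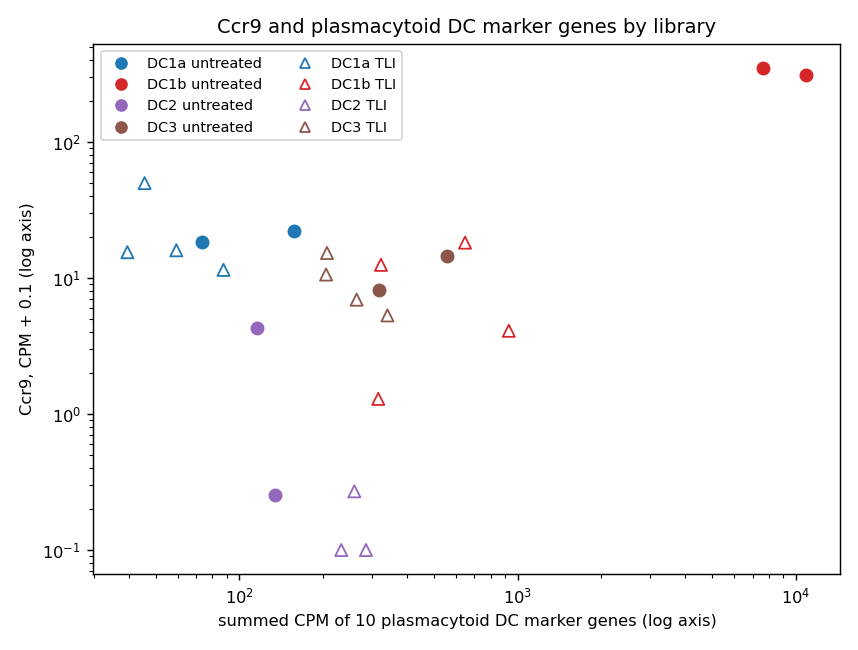
Ccr9 (CPM plus 0.1) against the summed CPM of 10 plasmacytoid DC marker genes, both on log axes; each point is 1 library, filled circles untreated and open triangles TLI, colored by population. The untreated DC1b libraries, at 7624 and 10928 CPM of marker genes, stand apart at the top right, and TLI DC2 lies at the bottom.

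Cxcr4, the receptor for Cxcl12 that holds leukocytes in bone marrow and guides them within lymphoid tissue, had its lowest mean in untreated DC3. Untreated DC3 held 5.10 and 1.65 CPM, DC1a 16.2 and 7.37 CPM, DC1b 45.9 and 55.0 CPM and DC2 81.9 and 50.4 CPM. DC1b and DC2 overlapped, and both lay above DC1a and DC3. Cxcr4 was lower in untreated DC3 than in DC2 by -4.38 ± 0.72 on the log2 scale (19.6-fold, edgeR adjusted p = 0.00564) and than in DC1b by -3.90 ± 0.71 (15-fold, edgeR adjusted p = 0.0207). The DC2 call was lost without untreated DC3 pool 2 (edgeR adjusted p = 0.126) and the DC1b call without untreated DC3 pools 1 or 2 (0.0758 and 0.335) or DC1b pools 1 or 2 (0.0553 and 0.113), out of ranges of 3.82e-09 to 0.126 and 3.77e-07 to 0.335 over the alternatives. Both were also lost in a fit of the untreated libraries alone (0.0638 and 0.134). TLI DC3 pools held 27.5, 25.7, 15.1 and 14.0 CPM. These were all above the untreated DC3 libraries, a difference of 3.14 ± 0.66 on the log2 scale that was not called (6.10-fold, edgeR adjusted p = 0.127, range 1.75e-05 to 0.684 over the alternatives, of which DESeq2's test alone passed). TLI DC1b pools held 23.8, 52.5, 46.3 and 40.2 CPM, TLI DC2 pools 72.7, 25.9 and 34.9 CPM, and TLI DC1a pools 21.1, 18.1, 8.27 and 4.24 CPM. TLI DC1a lay below TLI DC1b and TLI DC2 without overlap, with edgeR adjusted p of 0.0659 and 0.0695.

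Cxcr3, the receptor of the interferon-induced chemokines, was close to the floor in DC2 and present in the other populations. Its DC2 libraries held 0 and 0.208 CPM in untreated mice and 0, 3.04 and 0 CPM after TLI. Untreated DC1a held 9.31 and 14.3 CPM, DC1b 19.2 and 59.4 CPM and DC3 15.7 and 53.8 CPM. TLI DC1a pools held 82.3, 112, 19.7 and 20.2 CPM, TLI DC1b pools 18.3, 11.7, 59.9 and 14.4 CPM, and TLI DC3 pools 39.2, 102, 6.04 and 38.3 CPM. DC2 did not overlap with any other population of its treatment, yet 0 of the 6 comparisons with DC2 were called, the lowest edgeR adjusted p being 0.0924 for TLI DC2 against TLI DC1a. The 4 TLI DC1a libraries lay above both untreated ones (4.95-fold in the mean, edgeR adjusted p = 0.648).

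Cx3cr1, the fractalkine receptor of monocytes and some DCs, and Ccr1, an inflammatory receptor of myeloid cells, both stood at 0 CPM in the 2 untreated DC1a libraries. Cx3cr1 held 52.2 and 8.59 CPM in untreated DC1b, 17.4 and 7.22 CPM in DC2 and 2.09 and 1.41 CPM in DC3. These means were 276-fold, 112-fold and 15.9-fold the floor of untreated DC1a, which covers counting error only. Of the 3 differences 0 were called (edgeR adjusted p = 0.0977, 0.0873 and 0.540). After TLI, Cx3cr1 ran from 32.7 to 71.6 CPM in DC2, above all DC1a (0.135 to 10.04 CPM) and DC3 (0.211 to 24.6 CPM) libraries, and from 3.81 to 53.7 CPM in DC1b. The DC2 difference was not called against DC1a (edgeR adjusted p = 0.129) or DC3 (0.356).

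Ccr1 differed widely between the 2 pools of untreated DC1b, DC2 and DC3. It stood at 35.6 and 0.56 CPM in untreated DC1b, at 2.32 and 38.9 CPM in untreated DC2, and at 14.5 and 0.118 CPM in untreated DC3. Its means were 164-fold, 187-fold and 66.2-fold the DC1a floor, without a call (edgeR adjusted p = 0.103, 0.0605 and 0.329). Each of these means rests mainly on 1 library. The lower untreated DC3 library was itself at the floor, with 3 counts, although its group is counted above as not overlapping with DC1a. TLI pools ranged from 0.244 to 7.10 CPM in DC1a, from 0.581 to 40.9 CPM in DC1b, from 11 to 22.5 CPM in DC2 and from 2.85 to 28.7 CPM in DC3. Ccr6 stood at 12.9 and 22.5 CPM in untreated DC1b and at 14.9 and 18.5 CPM in untreated DC2, against at most 1.02 CPM in untreated DC1a and DC3. Its untreated comparisons were not called, the lowest edgeR adjusted p being 0.345.

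Between TLI and untreated mice 0 of 32 pairs of receptor and population were called by edgeR, against 0.128% over all genes, with 8 pairs at an unadjusted p under 0.05 (10.4% of such pairs over all genes). The share of all genes called was 0.0102% in DC1a, 0.413% in DC1b, 0.0612% in DC2 and 0.0255% in DC3. DESeq2 called 7 of the 32, against 4.37% of all pairs to which it gave an adjusted p, and edgeR without the filter on low expression called 1, Ccr9 in DC1b, against 0.201%. The fitted contrast compares at the level of batch 1 and takes the batch difference of the TLI pools to be the same in each population, since all untreated pools are of batch 1. CPM did not overlap in 10 of 32 pairs (31.2%, against 18.5% over all genes). These were Ccr1, Ccr2, Cxcr3 and Cx3cr1 in DC1a, Ccr9 in DC1b, Ccr2, Ccr7 and Cx3cr1 in DC2, and Ccr7 and Cxcr4 in DC3. In DC2 the mean of Ccr2 was 322 ± 191 CPM (SD, n = 3) after TLI and 43.5 ± 8.80 CPM (SD, n = 2) without it, a difference of 2.29 ± 0.66 on the log2 scale (edgeR adjusted p = 0.285), which was 1.27 within batch 1. That of Ccr7 in DC2 was 30.7 ± 34.7 CPM (SD, n = 3) after TLI and 496 ± 7.83 CPM (SD, n = 2) without it (log2 fold change -2.01 ± 1.01, edgeR adjusted p = 0.577). Ccr7 in DC2 thus stood at 69.4 CPM in the TLI pool of the same batch as the untreated pools. The TLI effect was tested for a difference between populations in 48 pairs, of which edgeR called 0 (0.0400% over all genes), with 19 at an unadjusted p under 0.05 (7.28% over all genes) and 7 called by DESeq2 (2.66%). The lowest adjusted p of these by edgeR was 0.430. Populations share their pools and the TLI contrasts share the batch term, so their directions are not independent.

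Compared per kilobase of transcript (CPM divided by the median length of a gene's basic transcripts), the leading receptor differed between populations. Ccr7 led in untreated DC1a (211 CPM per kb) and untreated DC2 (251 CPM per kb). Ccr2 led in TLI DC2 and TLI DC3 (98.9 and 115 CPM per kb), and Ccr7 led in TLI DC1a and TLI DC1b (283 and 85.8 CPM per kb). In untreated DC1b Ccr9 (110 CPM per kb) stood beside Ccr7 (93.1 CPM per kb) and in untreated DC3 Ccr2 (74.1 CPM per kb) beside Ccr7 (54.1 CPM per kb). Both of these orders turned when the length of all merged exons was used, with 32.2 CPM per kb for Ccr9 and 35.7 CPM per kb for Ccr2.

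The ligands, the other receptors and the signalling genes of the same system gave further differences between populations. Calls between treatments were few, as they were over all genes. Each tested gene entered 6 comparisons within each treatment and 1 between treatments in each population. Over all genes 0.760% of such pairs were called between untreated populations, 1.38% between TLI populations and 0.128% between treatments. Higher and lower refer to the first-named population of a comparison. Of 18 ligand genes 16 were tested, and 11 of their pairs were called between untreated populations (5 higher, 6 lower) and 17 between TLI populations (7 higher, 10 lower), beside the shares of all genes given above. Ccl9, a ligand of Ccr1, was higher in untreated DC2 (57.6 ± 37.9 CPM, SD, n = 2) than in untreated DC1a (0.879 ± 1.02 CPM), by 5.83 ± 1.05 on the log2 scale (edgeR adjusted p = 0.00678). Cxcl9, a ligand of Cxcr3, was lower in untreated DC2 (17.3 ± 2.22 CPM) than in untreated DC1a (440.1 ± 12.2 CPM), by -4.87 ± 0.63 (edgeR adjusted p = 0.000498). Between treatments 1 ligand pair was called: Ccl6, a further Ccr1 ligand, was higher in TLI DC1b (616 ± 115 CPM, n = 4) than in untreated DC1b (139 ± 12.1 CPM, n = 2), by 2.08 ± 0.28 (edgeR adjusted p = 0.00294). This population also held the neutrophil and monocyte markers named above, whose part in it was not tested.

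Of 20 other chemoattractant receptors 18 were tested, with 6 pairs called between untreated populations (4 higher, 2 lower), 8 between TLI populations (4 and 4) and 0 between treatments. The shares over all genes were 0.760%, 1.38% and 0.128% in that order, here and for the lists that follow. Xcr1, the cDC1 receptor for Xcl1, was lower in TLI DC2 (20.5 ± 16.5 CPM, n = 3) than in TLI DC1a (744 ± 236 CPM, n = 4), by -5.70 ± 0.62 on the log2 scale (edgeR adjusted p = 2.78e-05). Ccrl2, a non-signalling receptor that binds chemerin, was lower in untreated DC3 (58.7 ± 56.5 CPM) than in untreated DC2 (714 ± 28.1 CPM), by -3.63 ± 0.77 (edgeR adjusted p = 0.0334). Of 4 atypical receptors 3 were tested and 0 pairs were called in either set of populations or between treatments. Of 33 signalling and migration genes 31 were in the table and tested, with 12 pairs called between untreated populations (8 higher, 4 lower), 6 between TLI populations (3 and 3) and 0 between treatments. Rgs1, which shortens signalling of G protein-coupled receptors, was lower in untreated DC3 (88.1 ± 48.3 CPM) than in DC2 (1324 ± 256 CPM), by -3.98 ± 0.45 (edgeR adjusted p = 0.000182), the same comparison in which Cxcr4 was lower. Elmo1, an adaptor of Rac activation, was higher in untreated DC2 (999 ± 295 CPM) than in untreated DC1a (132 ± 6.07 CPM), by 2.71 ± 0.47 (edgeR adjusted p = 0.00476).

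The receptors did not move as a block across the 23 libraries. Pearson's r of log2 CPM between pairs of them ran from -0.73 for Ccr2 and Ccr7 to 0.70 for Ccr9 and Cxcr3. The points share populations, pools and depth, so these values are descriptions. Among 10167 genes with a mean of at least 5 CPM, Ccr7 was most like Gadd45b, a stress-induced gene (r = 0.93, Spearman's rho = 0.88), followed by H2-Q2 (r = 0.89) and Lipe (r = 0.86). Ccr2 was most like Capn2 (r = 0.86), S100a10 (r = 0.84) and Ifi44 (r = 0.81), and Ccr9 most like Fcrla (r = 0.88), Slco3a1 (r = 0.86) and Rabgap1l (r = 0.85). Cxcr4 was most like Cxcl2, a chemokine of neutrophils (r = 0.86), Ms4a6d (r = 0.83) and Tlr6 (r = 0.82), and Cxcr3 most like Gpr141b (r = 0.87), Ppt1 (r = 0.86) and Aph1a (r = 0.85). Cx3cr1 was most like Emilin2, Ddx58 and Gm15448 (r = 0.84, 0.84 and 0.83). Ccr6 was most like Npl, Hilpda and Rac2 (r = 0.79, 0.78 and 0.77), and Ccr1 had the weakest likeness, to Kiz, Gm15931 and Tm7sf3 (r = 0.77, 0.71 and 0.71).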

How the data were processed

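RNA of sorted splenic DCs was amplified with an ultra-low input kit and sequenced. The authors trimmed reads with Trimmomatic, aligned them to GRCm38 with HISAT2 and ran StringTie with its prepDE script on an Ensembl annotation. The deposited values are the resulting estimated counts, whole and not normalized, and they were tested unchanged although the design had named read counts. Symbols and positions came from GENCODE M21 (47224 of 47729 identifiers matched). CPM used the library totals, 19256447 to 36997890 counts.

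Counts of all 23 libraries were scaled by TMM, filtered with filterByExpr and fitted with edgeR 4.0.16 (R 4.3.3) by group and batch. The quasi-likelihood test was adjusted by Benjamini-Hochberg over 19597 genes, with a threshold of 0.05. A standard error is the fitted log2 fold change divided by the root of its F. Contrasts were TLI against untreated in each population, all pairs of populations within a treatment, and differences of the TLI effect. The scripts were tested on simulated data. The 8 receptors were named in full, with the 3 genes most like each and, per gene list, the 2 members with the largest called changes at a mean of at least 5 CPM. The members and lists were chosen with earlier results of these data known.

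Pool numbers in the labels name pools of mice, so populations of a pool were taken as the same mice, and an alternative fit took the pool as a replicate block. Residuals of same-pool libraries correlated at a median of 0.00678 in untreated and -0.0834 in TLI mice (range -0.182 to 0.196). For libraries of different pools in the same batch the medians were -0.00678 and -0.107 (TLI range -0.289 to -0.00717). As the untreated groups are pairs of libraries, the fit makes the residuals of each group mirror images. The untreated median of -0.00678 is thus 0.00678 with its sign turned. Fitted group means also tie the TLI residuals to each other, so these medians cannot show whether libraries of a pool share mice. Other alternatives were DESeq2 1.42.0, its size factors, no filter, batch 1 only, no batch term, libraries of one treatment only, each library left out, and, chosen after the data were seen, TLI pool 1 left out and erythroid genes removed.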

Additional observations from a re-analysis of the deposited data

Results flagged for a closer look

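In 24 groups of 4 TLI libraries tested (8 receptors in DC1a, DC1b and DC3), the highest library stood far from the other 3 in 6, by a gap past Dixon's critical value for 4 samples. For 4 draws from a single normal distribution that value flags about 1 in 20 groups. The CPM here were not put on a log scale and each group mixes 2 batches. That rate therefore need not hold, and the number flagged cannot be judged against it. Cx3cr1 reached 10.04 CPM in DC1a, against 0.492 CPM in the next library. Cx3cr1 also reached 24.6 CPM in DC3, against 3.59 CPM. Both were libraries of TLI pool 2, as were those of Ccr6 in DC1a (9.19 CPM, with 0 CPM in the others) and of Ccr9 in DC1a (49.7 CPM, next 15.9 CPM). Ccr2 reached 307 CPM in DC1b of TLI pool 4 (next 144 CPM), the library with little Cd8a. Cxcr3 reached 59.9 CPM in DC1b of TLI pool 3 (next 18.3 CPM). Causes were not tested.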

How the results depend on the processing

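Of 13 calls, 5 stayed past the threshold in all 30 alternatives: Ccr2 in TLI DC2 and DC3 against DC1a, Ccr7 in TLI DC3 against DC1a, and Ccr9 in TLI DC2 against DC1a and in TLI DC3 against DC2. DESeq2's test moved the number of called receptor pairs from 0 to 7 between treatments, from 4 to 20 between untreated populations, from 9 to 16 between TLI populations and from 0 to 7 for the difference of the TLI effect, and the calls over all genes from 100 to 3594, from 894 to 7216, from 1619 to 9007 and from 47 to 3459. Without the filter 1 receptor pair was called between treatments and 13 between untreated populations, and over all genes 330 between treatments and 129 for the difference of the TLI effect. With libraries of a single treatment 5 receptor pairs remained called between TLI populations. Batch 1 alone gave 15 calls over all genes between treatments and 22 for the difference of the TLI effect, no batch term gave 28 and 19, and leaving out TLI pool 1 gave 412 and 72. Leaving out each library in turn gave 0 to 0, 1 to 6, 7 to 10 and 0 to 0 receptor pairs, and 21 to 145, 364 to 1077, 1081 to 1643 and 19 to 106 calls over all genes, in the same order. The fewest receptor calls between untreated populations came without untreated DC3 pool 2. The replicate block by pool ended 3 calls, Ccr7 in TLI DC2 against DC1a and in TLI DC3 against DC1b and Ccr9 in TLI DC2 against DC1b, and no other. Cxcr3 in DC2, TLI against untreated, was 3.72 on the log2 scale and turned to -4.21 in batch 1 alone and -3.91 without TLI DC2 pool 3 (up to 8.11 without untreated DC2 pool 2), with 2 of 3 TLI libraries at 0. The causes were not tested. Untreated groups of 2 pools limit what any test here can call.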
